A study of Mus musculus with 10 samples.

Results

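Large intergenic noncoding RNAs (lincRNAs) are transcripts that lie between protein-coding genes and carry no known reading frame. Many were first mapped as regions of active chromatin, so that an array design holds probes for a region before the transcript itself has a name or even a known strand. Some lincRNAs build nuclear structures or silence imprinted genes and the X chromosome, and others are known only as a position. As a class they are usually expressed at low levels and in few tissues, and several take part in the differentiation of fat cells.

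The lincRNA probes described here are the 16251 non-control probes whose gene name, description or systematic name on the array holds the text lincRNA, out of 55681 probes in all, which leaves 39430 other probes. Each is a 60-base oligonucleotide printed in 1 spot, and together they cover 3555 regions of the mouse genome (build mm9), with 8199 probes on the forward and 8052 on the reverse strand. Epididymal white adipose tissue, the fat pad beside the epididymis, was taken from 10 adult male wildtype C57BL/6JOlaHsd mice (strain given as C57BL/6J in the sample characteristics). All of them received a purified low fat diet for 3 weeks and a high-fat diet for 12 weeks at 29°C, and then desferrioxamine (DFO), an iron chelator, at 100 mg/kg body weight in daily injections for 5 days. The mice were killed on day 6 after 2 h without food. Each mouse gave 1 two-colour array, with its own RNA in Cy5 (red) and a pool of RNA from all mice of the wider experiment, control mice among them, in Cy3 (green). No dye was swapped and control mice were not analysed here, so the values below describe fat of DFO-injected mice and the differences among them, with no comparison of injected against control mice.

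The probes show the nature of the measurement, so those on which the results turn are printed first, 5′ to 3′ as the scanner files give them. The first pair covers the same bases of chr11 (mm9) from opposite strands. Capitals mark the 47 bases that the probes share, which are the reverse complement of each other, and the forward probe was detected on 10 arrays while the reverse probe was detected on 0.
chr11:35810479-35810538, forward: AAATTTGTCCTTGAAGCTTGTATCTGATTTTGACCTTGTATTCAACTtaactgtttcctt
chr11:35810466-35810525, reverse: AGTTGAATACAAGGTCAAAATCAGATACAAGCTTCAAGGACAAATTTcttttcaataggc
The next 3 come from bright regions and are shown for their base composition, with every G and C in capitals. The last 2 of them lie side by side on opposite strands, and both were detected on all 10 arrays.
chr14:78936616-78936675, forward: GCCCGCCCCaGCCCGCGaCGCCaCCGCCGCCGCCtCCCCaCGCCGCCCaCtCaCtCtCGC
chr12:73862326-73862385, reverse: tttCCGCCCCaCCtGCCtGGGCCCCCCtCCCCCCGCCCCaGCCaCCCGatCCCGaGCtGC
chr12:73862399-73862458, forward: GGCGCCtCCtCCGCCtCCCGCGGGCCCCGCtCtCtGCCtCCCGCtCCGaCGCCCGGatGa
The 6 that follow are the most variable probe of each of the regions that differed most among the mice. They are given whole, in lower case, with no base marked.
chr1:85038372-85038431, reverse: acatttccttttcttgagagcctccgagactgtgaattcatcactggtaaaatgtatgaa
chr2:136340890-136340949, forward: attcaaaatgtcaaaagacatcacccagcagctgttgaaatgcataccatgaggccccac
chr8:93340269-93340328, reverse: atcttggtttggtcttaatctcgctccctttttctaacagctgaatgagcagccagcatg
chr9:65368970-65369029, reverse: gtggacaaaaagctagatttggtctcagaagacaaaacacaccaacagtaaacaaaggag
chr1:85305009-85305068, reverse: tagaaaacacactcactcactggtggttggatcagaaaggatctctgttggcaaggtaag
chrX:18734109-18734168, reverse: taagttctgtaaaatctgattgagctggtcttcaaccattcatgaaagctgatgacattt

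The arrays differed in brightness, with a raw median Cy5 signal of the other probes from 72.1 in mouse 3 to 132 in mouse 8. The scanner software marks a spot as well above its local background, and per mouse this held for 22.8% to 33.1% of the lincRNA probes in Cy5, lowest in mouse 3 and highest in mouse 2, and for 53.7% to 63.7% of the other probes, with the same mice at the ends. No spot was saturated. Each of the adipocyte, macrophage, endothelium and stromal fibroblast marker lists was detected in full. The mice fell apart along 1 axis: the first component of the other probes held 76.4% of their variance, with mice 4 to 7 on one side (scores 0.28 to 0.45) and the other 6 on the other side (-0.37 to -0.14). Over the same mice the mean log2 ratio of the 8 adipocyte markers was -2.69 to -1.56 in mice 4 to 7 and -0.24 to 0.65 in the others, and that of the 6 macrophage markers 0.84 to 1.12 against -1.41 to -0.03. The endothelium list (-0.74 to -0.42 against 0.02 to 0.29), the mesothelium list (-1.56 to -1.03 against -0.57 to 0.55) and the blood list (-2.06 to -1.34 against -0.94 to 0.51) were also lower in mice 4 to 7 without overlap. So were the detected markers of lymphocytes (-0.53 to -0.34 against -0.13 to 0.17), epididymis (-0.09 to 0.10 against 0.21 to 0.76) and motile cilia (-1.27 to -0.88 against -0.79 to 1.82). Members of a list differed. Among the 2 detected epididymis markers Rnase10 averaged 0.08 in mice 4 to 7 against 0.67, and Lcn12 -0.05 against 0.01. The endothelial Kdr had 0.11 against 0.18. The stromal fibroblast list met at its ends (-0.05 to 0.25 against -0.54 to -0.05), with Dpt (-0.83 against -0.09) opposite to Col1a1 (0.57 against -0.49). The detected sperm markers overlapped (-2.79 to -2.27 against -2.67 to -1.02). The part of any of these cell types in the lincRNA values was not tested. In bulk tissue, fewer cells of a type and less RNA per cell cannot be told apart.

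Most lincRNA probes gave no signal in this tissue. A probe is called detected here when it was well above background in Cy5 on at least 5 of the 10 arrays. By that rule 4621 lincRNA probes (28.4%) were detected, against 23180 of the other probes (58.8%). The difference lay at the ends of the scale: 57.4% of the lincRNA probes were above background on no array, against 31% of the others, and 19.6% on all 10, against 50.9%. A further 1330 lincRNA probes (8.18%) passed on a single array. Among the other probes, those for RefSeq lncRNA genes were closest to the lincRNA probes, with 551 of 1841 (29.9%) detected, whereas 18935 of 28877 probes for RefSeq protein-coding genes (65.6%) were. These are shares of fixed probe sets on the same arrays, given as a description without a test. A spot that is not well above background sets only an upper bound on its transcript.

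The detected lincRNA probes were also dim. Their mean log2 Cy5 signal had a median of 6.96 (quartiles 6.60 and 7.78), against 8.58 (7.18 and 10.49) for the other detected probes and 7.03 for probes of RefSeq lncRNA genes. Below a log2 signal of 8 lay 78.6% of the detected lincRNA probes and 40.9% of the other detected probes. The difference of the medians was -1.62 ± 0.0413 (SD over 10 arrays). Normalization gave all arrays the same distribution of average signal, so this SD is small by construction and does not measure the spread between arrays. Under other processing the difference ran from -2.51 (processed signals) to -0.62 (no filter). Brightness also depends on the sequence of a probe, so it ranks spots and does not rank transcripts.

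The detected share differed between chromosomes. Over all autosomes it was 28.6%, from 20.8% on chromosome 9 to 35.5% on chromosome 17, and on the X chromosome 23%. Probes of regions with probes on 1 strand (6569 probes) and of regions with probes on both strands (9682 probes) were detected in 28.4% and 28.5% of cases. In 1-strand regions 29.3% of probes under 200 bases from the 3′ end of the region were detected, and 32.6% of those 5000 to 20000 bases away. The ends of a region are those of the array's annotation, and may not be the ends of a transcript. The polyadenylation signal AATAAA, searched on the strand of the probe as printed, stood in 3.92% of lincRNA probes and in 12.6% of the other probes of the same length. Its reverse complement TTTATT was present in 3.03% and 4.03%. Among lincRNA probes the shares with AATAAA were 4.28% of those detected and 3.77% of those not detected.

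Base composition moved with detection. The detected share rose from 14.3% of lincRNA probes with under 35% G and C, through 24.1% (35 to 45%), 28.4% (45 to 55%) and 42.8% (55 to 65%), to 69.5% of the 275 probes with 65% or more. In the other probes it went from 51% to 74.6% over the same bins. Of the 10 brightest lincRNA probes, 4 held at least 75% G and C, among them the first 2 of those printed above with G and C in capitals. Their part in the brightness was not tested, and leaving out every probe above 60% G and C, a setting chosen after seeing the data, left 4388 detected lincRNA probes.

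Regions that also contain a probe of another name were detected more often. Of 4622 targets (a region on 1 strand), 905 contained the position of an other probe on the same strand, and 58.6% of them had at least 1 lincRNA probe detected, against 49.7% of the 3717 targets without one. At the level of probes the shares were 36.5% and 26.4%. The design also repeats 79 lincRNA probes letter for letter under another name, which measures how well a value repeats. In the 36 pairs where both copies were detected, the mean log2 Cy5 differed by a median of 0.11 and at most by 0.59, and the call differed in 5 of the 79. Of the other copies, 20 carry the name of a protein-coding gene, such as Man1a2, Timm17b and E2f6, so part of the intergenic class was placed in genes by the array's own annotation.

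The probes of 1 target did not always share a detection call. Of 3397 targets with at least 3 probes, none was detected in 1498 (44.1%), some but not all in 1569 (46.2%) and all in 330 (9.71%). Of 147 targets with 10 probes, 29 had none detected and 4 had every probe above background on every array. These 4, singled out after their values were seen, lay on the forward strand at chr16:43623581-43642715, chr17:26911397-26917047, chr19:5771425-5848475 and chr4:129497990-129515290. The chr16 target had the highest spread of the log2 ratio (median SD 0.45 over its 10 probes), and its mean ratio was -0.68 to -0.57 in mice 4 to 7 and -0.01 to 0.34 in the others. The chr17 target ran the same way, at -0.37 to -0.21 against 0.12 to 0.36. The chr19 target spans the Malat1 and Neat1 genes on the strand opposite to both, and the SD of its probes was 0.07 to 0.20.

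The strands of a region often differed in detection. Of 1067 regions with probes on both strands, 464 (43.5%) had a detected probe on 1 strand only, 214 forward and 250 reverse, 400 (37.5%) had one on both and 203 (19%) on neither. With the strict rule, 1 strand on all 10 arrays and no probe of the other strand on any, 170 regions remained, and in 260 both strands had a probe on all 10 arrays. Probes that share at least 30 bases from opposite strands give the closest comparison. Of 1728 such pairs, 664 (38.4%) were detected on 1 strand, 160 (9.26%) on both and 904 (52.3%) on neither. In 338 pairs the one probe was on all 10 arrays and the other on none. Of all lincRNA probes 28.4% were detected, so many pairs would show 1 strand only even if their probes were unrelated. These counts by themselves do not show transcription from 1 strand.

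The brightest 1-strand regions are described next. At chr3:87757295-87774970, between Crabp2 and Nes, the forward probe read 14.25 to 14.57 (log2 Cy5, median 14.40) over the 10 mice, and no reverse probe was above background on any array. Another forward probe of this target has the same letters as the probe of Crabp2, so the target is not free of the gene's sequence. At chr11:35805295-35817263, between Wwc1 and Odz2, the forward probe printed above read 12.65 to 13.98 (median 13.18). Its log2 ratio of Cy5 over Cy3 was 0.60 to 0.65 in mice 4 to 7 and -0.46 to -0.12 in the other 6, without overlap. The reverse strand was the detected one at chr6:145936225-145965575, between Sspn and Itpr2, where the brightest probe read 10.68 to 13.45 (median 11.69). Here too mice 4 to 7 stood above the rest, with ratios of 0.81 to 1.30 against -0.97 to -0.09. In the rest of the 5 brightest such regions, chr13:108548345-108679004 (reverse) and chr1:183951156-183986156 (forward), the brightest probe had a ratio SD of 0.09 and 0.19. Of their probes 5 of 6 and 1 of 5 were detected, and of the chr6 target 2 of 5.

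Among regions with both strands on all arrays, the 5 brightest were chr7:108209996-108216032, chr11:22681800-22707775, chr12:73838608-73862621, chr6:116092274-116144199 and chr6:83368261-83407280. The brightest probe of each strand had an SD of the ratio of 0.09 to 0.25, on both sides of the lincRNA median of 0.15. At chr6:116092274-116144199 the reverse probe separated mice 4 to 7 (-0.26 to -0.12) from the others (-0.02 to 0.26). By the Pitman-Morgan test of equal variances described below, Cy5 varied more than the pool for that probe (adjusted p = 0.00545) and for the reverse probe at chr6:83368261-83407280 (adjusted p = 0.00961). In 3 of the 5 regions the brightest probe held 78.3% or more G and C. Among the brightest regions with at least 3 detected probes was chr12:73838608-73862621 (reverse), through 1 probe. Of its 5 probes 3 were detected, with mean log2 Cy5 of 15.33, 7.25 and 7.10. Another was chr17:17481706-17482457 (reverse), between Gm6712 and Riok2, whose 3 probes had mean log2 Cy5 of 15.49, 15.18 and 14.12. The SD of their ratios was 0.11 to 0.15, and the first component described above held 66.5%, 84.7% and 83.2% of their variance. For the last of them the ratios were 0.37 to 0.44 in mice 4 to 7 and 0.03 to 0.17 in the others. A forward probe over 52 of the same bases was above background on 0 arrays.

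Of the lincRNAs that the array names, the nuclear architectural RNA NEAT1, on which paraspeckles are built, was bright with all 5 probes. Their mean log2 Cy5 was 13.01 to 13.97. For the brightest probe the values ran from 13.51 to 14.44, and Cy5 varied more among the mice than the pool did among the arrays (SD 0.33 against 0.09, Pitman-Morgan test of equal variances, adjusted p = 0.00288). NEAT2, the name the design uses for the nuclear speckle RNA Malat1, was detected on all arrays with 3 of 3 probes at 8.78 to 9.11, within 120 bases of the Malat1 gene probe (8.70). A separate lincRNA region 6417 bases away on the same strand, chr19:5801802-5802597, held the brightest lincRNA probe of all, at 16.36 to 16.85 (mean 16.58 ± 0.16, SD, n = 10), and its other 2 probes had means of 15.45 and 14.72. It lies inside the coordinates given for NEAT2, chr19:5795689-5802671, so probes within 1 annotated transcript covered this range of signal.

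TUG1, a widely expressed lincRNA, was detected on all arrays with 5 of 5 probes at 7.68 to 8.67. Of the probes named KCNQ1ot1, after an imprinted antisense RNA, 2 of 5 were detected, but they lie on the forward strand and the Kcnq1ot1 gene probes inside the same region on the reverse strand, so the name and the strand disagree. Detection was found for the NFAT repressor NRON with 2 of 5, the HOX cluster RNA HOTAIR with 1 of 5 and the imprinted growth-related H19 with 1 of 5. No probe of XIST, which coats the inactive X chromosome of female cells, was detected, as was the case for its antisense partner TSIX, for PINC, for lincP21 and for BRN1-A. All 4 BRN1-A probes had their highest log2 ratio in mouse 2 (0.32, 0.45, 0.90 and 1.21, against -0.70 to 0.13 in the other mice), and each was above background on 1 array. The mice were male. In all, 19 of the 57 probes of these 12 named transcripts were detected. For long noncoding RNA genes that other probes name by symbol, 26 of a list of 35 were on the array and 21 of them were detected, among them the snoRNA hosts Gas5 (log2 Cy5 11.38) and Snhg6 (11.73), and the imprinted Meg3 (10.69) and Airn (10.59).

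The spread among the mice depended on the processing. The median SD of the log2 ratio over the 10 mice was 0.15 for detected lincRNA probes and 0.186 for other detected probes, and an SD above 0.5 was reached by 117 (2.53%) and 2652 (11.4%). The order of the medians turned with the software's processed signals (0.379 and 0.302). It also turned in the deposited values (0.272 and 0.267), which follow Cy5 and are no ratio. The SD of log2 Cy5 under the main processing had medians of 0.15 and 0.20. Over the 6 mice on one side of the first component the medians for the ratio were 0.133 and 0.136. Under the main processing, the difference moved with brightness. Detected probes were split into 5 bins of equal size by signal. In the dimmest bin, which held 42% of the detected lincRNA probes, the medians were 0.14 and 0.15. In the brightest bin, with 197 lincRNA probes, both were 0.21. In between they were 0.15 and 0.18, 0.17 and 0.20, and 0.19 and 0.21, always lower for the lincRNA probes. Weighted to the signal of the lincRNA probes, the 2 classes stood at 0.155 and 0.174.

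The Cy3 pool was the same RNA on every array, so the variance of Cy3 holds the technical spread of that colour. The variance of Cy5 holds the technical spread of Cy5 and the mice as well. Because the dyes were never swapped, a larger technical spread of Cy5 and differences among the mice cannot be told apart here. In 3546 lincRNA probes that were above background in both colours on at least 5 arrays, Cy5 varied more than Cy3 in 1241 (35%) by the Pitman-Morgan test at an adjusted p under 0.05, and less in 15. Over all 25043 probes tested the share was 59.7%, and over the other probes alone 63.8%, so the lincRNA share was below the background. The median ratio of the SDs, Cy5 over Cy3, was 1.65 for lincRNA and 2.67 for other probes. Within the bins of signal the called shares of lincRNA and other probes were 17.3% and 32% in the dimmest, 44.2% and 65.1% in the middle and 63.5% and 76% in the brightest. A further 1071 detected lincRNA probes were not tested because the pool was above background on too few arrays. Without normalization between the arrays the lincRNA count was 341, and over the 6 mice on one side of the first component alone it was 188. The count of other probes fell as well, from 13719 to 4332 and 3358.

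The arrays lay on 5 slides with 2 mice each. Over 4615 lincRNA probes none differed between slides by limma's moderated F test at an adjusted p under 0.05 (0% of all 27710 probes tested), and 138 (2.99%) had an unadjusted p under 0.05. Over all 27710 probes tested, 1137 had an unadjusted p under 0.05 by the same test. The smallest adjusted p of a lincRNA probe was 0.697.

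Where lincRNA probes did vary, they mostly followed the axis that split the other probes. The first component held a median of 24.5% of the variance of a detected lincRNA probe and 53.1% of that of an other probe. It was computed from the other probes alone, so their share is higher in part by construction. The lincRNA probes were also dimmer, and the part of brightness in the difference was not tested. Of 2673 lincRNA probes above background in both colours on all arrays, 106 (3.97%) from 64 targets had an SD above 0.5, against 12.8% of 19327 other probes. For 100 of the 106 the component held over 50% of the variance, with 43 higher and 57 lower in mice 4 to 7. Over all detected probes that share was 29.3% of lincRNA and 52.2% of other probes. It was not computed for other probes with an SD above 0.5, so the 100 of 106 is not shown to be particular to lincRNA probes. Of the 64 targets, 49 had at least 2 probes above background in both colours throughout, and the median correlation between their probes was 0.96. Over all 605 targets with at least 2 such probes it was 0.47 (quartiles 0.13 and 0.80). The 49 were picked by an SD above 0.5 in the same mice. A high correlation comes in part with that choice, so the 2 medians are no like comparison. These correlations run over 10 mice that share the split and are given as a description.

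The 10 most variable lincRNA probes came from 6 regions, 3 of them low in mice 4 to 7. At chr1:85036677-85038530 (reverse) the printed probe had log2 ratios of -2.03 to -1.42 in mice 4 to 7 and -0.65 to 0.84 in the others (SD 1.20). Its Cy5 ran from 8.03 to 11.03 with a median of 9.92, and the pool had an SD of 0.06. The annotated gene probes with the smallest root mean square difference from it over the 10 mice were Slc1a3, a glutamate transporter (0.20), Cldn5, a tight junction protein of endothelium (0.21), and Sctr, the secretin receptor (0.21). For the other probe of the region they were Gpihbp1, which holds lipoprotein lipase on capillaries (0.13), Eif4ebp1 (0.15) and Aldh5a1 (0.16). The nearest annotated gene probes, for Slc16a14 and A530032D15Rik, lay 134481 and 46353 bases away and were above background on 4 arrays and 1.

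At chr2:136327645-136341251 (forward) all 3 probes were among the 10, and the printed one had ratios of -2.25 to -1.40 in mice 4 to 7 and -0.66 to 0.52 in the others (SD 1.08). A gene probe for Ankrd5 lay 1454 bases away on the same strand, inside the region, and had its own 4 lowest ratios in the same mice (-1.68 to -1.17, against -0.53 to 0.40). The region is thus not free of an annotated transcript. The genes closest in pattern were Mogat1, an enzyme of triglyceride synthesis (0.13), Adig, an adipocyte protein (0.15), and Sik2, a kinase of adipose tissue (0.16). For another probe of the region Klb, the co-receptor of FGF21 (0.10), Sdpr (0.12) and Ptger3 (0.12) were closest. The remaining probe had Amy2a5 (0.15), Ces1f (0.16) and B3galt2 (0.16).

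The last of the 3, chr1:85304494-85305390 (reverse), had ratios of -1.37 to -1.15 in mice 4 to 7 and -0.59 to 0.83 in the others (SD 0.95). The closest genes in pattern were the chemokines Cxcl9 (0.20) and Ccl24 (0.21) and the secreted C1qtnf1 (0.21). All 3 probes of the region were detected, with SDs of 0.75 to 0.95.

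Another 2 regions were high in mice 4 to 7. At chr9:65368908-65377592 (reverse) the printed probe had ratios of 0.65 to 1.08 in those mice and -1.54 to -0.32 in the others (SD 0.96). Slc11a1, a metal transporter of the macrophage phagosome (0.10), Tyrobp, a myeloid signalling adaptor (0.11), and Tcirg1, a proton pump subunit (0.12), were closest in pattern. For another probe of the region they were F7 (0.09 and 0.11 for its 2 probes) and Tuba1c (0.11). The nearest detected gene probe, Plekho2, lay 30600 bases from the printed probe and ran the same way with a smaller spread (SD 0.26). At chrX:18734106-18744367 (reverse) the ratios were 0.84 to 1.00 against -1.30 to -0.27 (SD 0.94), with all 3 probes of the region detected on all 10 arrays. Fam129b was the gene closest in pattern (0.09). A gene probe for Gm14636, inside the region at 1608 bases on the same strand, was above background on 4 arrays and had ratios of 0.27 to 0.40 in mice 4 to 7 and -0.07 to 0.00 in the others.

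The sixth region did not follow that axis. At chr8:93337794-93348869 (reverse) the printed probe stood at a ratio of 1.93 in mouse 2 and between -1.40 and -0.90 in the other 9 (SD 0.97), and its Cy5 was 10.31 in mouse 2 with a median of 6.95. A second probe of the region read 1.69 in mouse 2. These were also 2 of the 3 lowest mean ratios, -0.82 and -0.80. The genes closest in pattern were Dnahc6, a dynein heavy chain of motile cilia (0.16), Tlr12 (0.19) and Wnk2 (0.19). In the same mouse the mean ratio of the detected motile cilia markers, 2 of the 4 on the array, was 1.82, against -1.27 to -0.32 in the others. Their part in the result was not tested. The flanking gene probes, Tox3 and Chd9, were 569160 and 237991 bases away.

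The mean ratio against the pool spanned a narrow range in the detected lincRNA probes, from -0.16 at the 5th to 0.22 at the 95th percentile, with a median of 0.04, whereas it was -0.31 to 0.20 in the other detected probes. The 3 highest means were 0.74 at chr5:52461266-52541416 (reverse; range 0.58 to 1.00), 0.71 at chr9:51905865-51911474 (reverse; 0.54 to 1.04) and 0.70 at chr1:182686731-182709331 (forward; 0.51 to 1.06). Each is the value of 1 probe, and all 10 mice were above the pool for it, with mouse 3 highest. Of the chr5 target 6 of 6 probes were detected, of the chr9 target 1 of 5 and of the chr1 target 3 of 3. Because the dyes were never swapped, a dye effect and a difference from the pool cannot be told apart, and no test against 0 was made.

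Last, the lincRNA probes were set beside the nearest detected probe of the other class. That probe lay at a median distance of 15419 bases, and the correlation of the 2 log2 ratios over the 10 mice had a median of 0.14 (quartiles -0.24 and 0.50; 4579 pairs). Over 22958 pairs of an other probe with its nearest probe of another gene the median was 0.12 (-0.36 and 0.58). For lincRNA probes the median fell with distance, from 0.46 under 1 kb through 0.18 (1 to 10 kb) and 0.07 (10 to 100 kb) to -0.07 beyond. For the other probes it fell as well, from 0.31 through 0.14 and 0.10 to 0.08. Under 1 kb the lincRNA median was 0.52 on the same strand (446 pairs) and 0.30 on opposite strands (177 pairs). For the other probes these medians were 0.75 and 0.13. The 2 sets of pairs are unlike. An other probe was paired only with a probe of another gene. A lincRNA probe could be paired with a probe of its own transcript, as a NEAT2 probe with Malat1 at 0 bases. The pairs share mice, arrays and the split along the first component, so no p is given.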

How the data were processed

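The members and gene lists were chosen with earlier results of these data known. Scanner files of 10 two-colour arrays were used, made by the authors with Agilent Feature Extraction 10.7.3.1, with positions on build mm9 per the file headers. The deposited intensity values (spot mean and local background median) were read with the detection and outlier flags. The deposited log10 ratio of the scanner software was not analysed, while its processed signals and the deposited log2 table of the authors (30733 rows, normalization not given in the sources used here) served as alternatives. That log2 table follows Cy5 signal and is no ratio. In limma 3.58.1 (R 4.3.3), background was corrected by normexp with offset 50, arrays were normalized by loess within and Aquantile between arrays, outlier spots were left out and spots of a probe were averaged. Biotypes came from RefSeq by symbol or accession. The Pitman-Morgan test ran over 10 arrays, and slides were tested with limma's moderated F, both with Benjamini-Hochberg adjustment over all probes tested. Both were tested on simulated data. Python 3.11.15 was used for the rest. Named probes were the 10 brightest, the 10 of largest SD of the ratio, the 3 highest and 3 lowest mean ratios, up to 5 regions each with 1 or both strands detected, up to 3 bright regions with at least 3 detected probes, and transcripts named by the design. The number of arrays limits the precision.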

Additional observations from a re-analysis of the deposited data

Results flagged for a closer look

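In 5 of the probes named above, 1 mouse stood apart from the other 9 by a gap that was large for the whole range of the 10 log2 ratios. At chr8:93337794-93348869 the gap of mouse 2 was 0.86 and 0.85 of the range in the 2 probes that were above background on all arrays. For TUG1, mouse 2 was highest in one probe (0.56) and mouse 4 lowest in another (0.497), while the remaining 3 probes had no such gap. At chr1:183951156-183986156 mouse 3 was highest (0.48). Chance flags about 1 in 20 such groups. Over the 2673 lincRNA probes above background in both colours on all arrays, 135 (5.05%) had such a gap, against 4.58% of the other probes. Among the other probes mouse 2 had the most such gaps (361), followed by mouse 3 (255). Among the lincRNA probes mouse 2 had 14, and mouse 3 accounted for 57 of the 135, in 50 of them as the highest. Mouse 3 also had the fewest lincRNA probes above background (3701). The 50 had a median G and C content of 53.3%, and the part of neither value in the gaps was tested.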

How the results depend on the processing

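The detected count of 4621 ranged from 3190 (all 10 arrays) to 6931 (at least 1 array) under the alternatives tried. The -1.62 difference of median log2 signal was -1.76 with median centring, -1.77 without background subtraction, -2.51 with processed signals, -0.62 with no filter and -1.97 in the deposited values. The median SD of lincRNA probes (0.15) and other probes (0.186) was 0.184 and 0.323 with median centring, 0.174 and 0.203 without background subtraction, 0.379 and 0.302 with processed signals, 0.128 and 0.149 with no filter, 0.272 and 0.267 in the deposited values, 0.155 and 0.174 within signal bins, 0.145 and 0.177 with slide means removed, 0.133 and 0.136 over the 6 mice on one side of the first component (chosen after seeing the data), and 0.155 for lincRNA probes with the all-array filter. So the lower spread of lincRNA probes reversed with processed signals. It also reversed in the deposited values, where the SD is that of a signal that follows Cy5 and not of a ratio. The cause was not tested. Without each mouse in turn the medians were 0.147 to 0.152 and 0.183 to 0.19.

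The count of lincRNA probes whose Cy5 varied more (1241) was 341 without normalization between arrays and 565 with processed signals. It was 671 with slide as a block, 188 over the 6 mice and 1069 to 1191 without each mouse in turn. Among the other probes the count (13719) was 4332 without normalization between arrays and 6754 with processed signals. With slide as a block it was 9659, and over the 6 mice 3358. Slide differences stayed at 0 in every setting, with 108 to 414 lincRNA probes at an unadjusted p under 0.05. The 108 came from the all-array filter and the 414 from no filter, so they are counts over sets of different size. The same counts for all probes are not given here. Strand pairs with 1 strand (464) were 170 under the strict rule. The median neighbour correlation (0.14) was 0.33 with median centring, 0.27 in the deposited values, 0.06 with the first component removed and 0.28 within 10 kb; for other probes it was 0.48, 0.16, 0.07 and 0.17. The first component's median share (24.5%) was 22.3% with median centring, 18.7% in the deposited values and 9.23% with no filter. For other probes (53.1%) it was 30.9%, 49.4% and 22.7%. Here too the deposited values are no ratio. Of 290 values of the 10 most variable probes, 14 moved beyond their error; without mouse 2 the SD of the chr8 probe fell to 0.16. No paired analysis was possible because the samples form 1 group.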
